A study of Mus musculus with 10 samples.

Results

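The genes described here encode the pore-forming and modifying subunits of voltage-gated potassium (Kv) channels. They were taken from the deposited expression table by gene symbol alone, as every symbol made of Kcn, one of the letters a, b, c, d, f, g, h, q, s or v, and a number, which gave 40 genes of the 45952 listed. RNA was sequenced from sensory neurons of adult Avil-GFP mice, which carry a bacterial artificial chromosome (line QD84) that places EGFP under the advillin promoter, on a CD1 background. All mice were naïve, of both sexes and aged 3 to 6 months. Neurons of the lumbar dorsal root ganglia (DRG, 6 libraries, 3 male and 3 female) or of the trigeminal ganglia (TG, 4 libraries, 2 male and 2 female) were dissociated, stained with propidium iodide and collected by FACS as GFP-positive, propidium iodide-negative single events. DRG neurons innervate the trunk and limbs, and TG neurons innervate the face and head. The sort captures only cells that survive dissociation and whose advillin promoter is active, and the labels name satellite glia as a contaminant of each library. The paper states that its dissociation favours neurons of small and medium diameter over large ones.

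Kv channels open when the membrane depolarizes and carry potassium out of the cell, so they set the resting excitability of sensory neurons, shape the action potential and limit repetitive firing. A channel is a tetramer. Subunits of the Kcna, Kcnb, Kcnc, Kcnd, Kcnh and Kcnq subfamilies form working pores, whereas those of the Kcnf, Kcng, Kcns and Kcnv subfamilies do not carry current alone and instead join Kcnb subunits, whose gating they modify. In sensory neurons, Kcnd channels give the fast transient A-type current, Kcnq channels the slow M-current, Kcna channels the low-threshold brake on firing, and the Kcnh2, Kcnh6 and Kcnh7 subunits the Erg current.

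The coding sequence of the pore sets the Kcna, Kcnb, Kcnc and Kcnd genes apart from the modifying subunits and also from the Kcnq and Kcnh genes, and it is shown because the gene with the clearest difference between the ganglia is a modifying subunit. The stretches run from the codons of the potassium selectivity filter to the inner gate helix and hold 102 bases each, 5′ to 3′ on the coding strand. The first 15 bases in capitals are the filter codons. The last 9 bases in capitals are the codons at the place where Kcna, Kcnb, Kcnc and Kcnd subunits have a proline, any residue and a second proline. They were read from the GENCODE M21 transcripts on GRCm38.
Kcnd1: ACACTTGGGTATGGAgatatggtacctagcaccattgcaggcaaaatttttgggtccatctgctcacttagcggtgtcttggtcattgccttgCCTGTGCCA
Kcns3: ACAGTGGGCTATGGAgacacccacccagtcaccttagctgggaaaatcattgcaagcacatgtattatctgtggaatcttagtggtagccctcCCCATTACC
Kcnv1: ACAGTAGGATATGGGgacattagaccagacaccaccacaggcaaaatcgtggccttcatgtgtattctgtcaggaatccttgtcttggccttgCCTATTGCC
Kcnh7: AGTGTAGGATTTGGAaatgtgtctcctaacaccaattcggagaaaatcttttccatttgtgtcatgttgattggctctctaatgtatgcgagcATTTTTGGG

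The Kcns3 stretch lies in exon 3 at chr12:11091488-11091589 on the minus strand and that of Kcnv1 in exon 3 at chr15:45109202-45109303 on the minus strand. The others are joined across an intron, within chrX:7824956-7831265 on the plus strand for Kcnd1 and chr2:62764745-62777357 on the minus strand for Kcnh7. Filter codons were found in 40 of 40 members. A pair of proline codons at the fixed distance, written CCNNNNCCN and searched on the coding strand in frame, stood in 17 of the 17 Kcna, Kcnb, Kcnc and Kcnd genes, in 0 of the 10 modifying subunits and in 0 of the 13 Kcnq and Kcnh genes. Over the 102 bases, Kcnv1 had the same base as Kcns3 at 67 positions, as Kcnd1 at 63 and as Kcnh7 at 49. Kcns3 had the same base as Kcnd1 at 57 positions, and Kcnh7 matched each of Kcnd1 and Kcns3 at 45.

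Expression was measured as FPKM, a fragment count scaled for library size and transcript length, which allows levels of different genes to be set side by side. A gene was called detected when it reached an FPKM of 1 in at least 2 libraries of DRG or of TG. By that rule 27 of the 40 members were detected (12637 genes of the whole table were), 25 of them through both ganglia and 2, Kcnq3 and Kcnq5, through DRG alone. Each library held 23 to 28 members at an FPKM of 1 or more, and 19 members reached that level in all 10 libraries. The 13 members below the rule had mean levels of at most 0.939 FPKM in either ganglion. Among them Kcna7, Kcnh4 and Kcnv2 were listed at 0 in every library. The depth behind the detected members differed widely, from a mean of 25.4 size-factor-normalised counts for Kcng2 to 4667 for Kcnd1 in the deposited table, and the undetected members had means of at most 28.2. FPKM alone carries no count, so the spread between libraries stands for the precision.

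Of the 6 DRG libraries, 3 stood apart from the rest by rank correlation of all genes, with a median correlation with the others of 0.849 in male DRG 3, 0.869 in female DRG 1 and 0.895 in female DRG 3, against 0.933 or more elsewhere. Neuronal markers were present throughout (12 of 12 detected, summed FPKM 5664 to 9021 in DRG and 5536 to 6738 in TG). Satellite glial markers (11 of 11 detected) summed to 1274 to 4686 FPKM in DRG and 3984 to 5304 in TG, and Schwann cell and myelin markers (10 of 11 detected) to 887 to 1388 and 1341 to 1924. Of 12 macrophage markers 3 were detected. Those 3 summed to 6.28 to 17.9 FPKM in DRG and 7.54 to 15.8 in TG, and all were fitted higher in DRG. Markers of peptidergic nociceptors (7 of 7 detected) summed to 6006 to 17473 in DRG and 3477 to 7151 in TG, those of nonpeptidergic nociceptors (9 of 9) to 375 to 676 and 522 to 679, those of myelinated A-fibre neurons (10 of 10) to 759 to 1888 and 679 to 1437, and those of C-fibre low-threshold mechanoreceptors (3 of 3) to 131 to 402 and 117 to 230. Of the 65 genes detected in these lists, 0 passed the adjusted threshold between the ganglia in limma and 16 had an unadjusted p under 0.05 (7 higher in DRG and 9 in TG), against 6.35% of all genes. The peptidergic markers were fitted higher in DRG for 7 of 7. Their median difference was 0.26 on the log2 scale, and 1 of them had an unadjusted p under 0.05 in limma. By the mean levels that the paper gives, most of their summed FPKM is Calca, which the paper reports as higher in DRG. The Schwann cell and myelin markers were fitted higher in TG for 9 of 10, with 4 of them at an unadjusted p under 0.05. Of the satellite glial markers, 7 were fitted higher in DRG and 4 in TG. Their summed FPKM nonetheless had a median of 3205 in DRG and 4697 in TG. The part of these cell types in the differences given here was not tested. In these sorted populations, fewer cells of a type and less RNA per cell cannot be told apart.

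**Figure D1:**
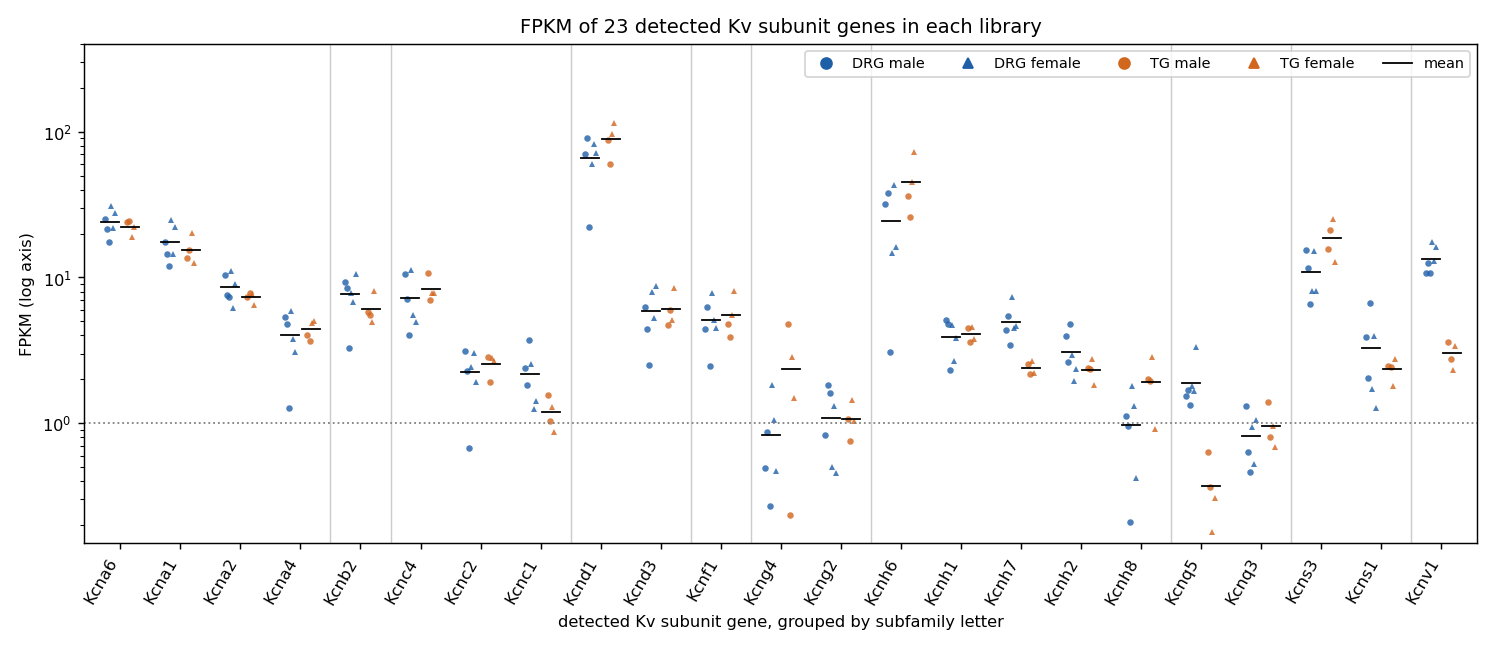
FPKM of 23 detected Kv genes on a log axis, with each point a library (blue DRG, orange TG, circles male, triangles female), each black line a mean and the dotted line an FPKM of 1. Kcnd1 has the highest mean in both ganglia, and the DRG and TG points of Kcnv1, Kcnq5 and Kcnh7 do not overlap.

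The 40 members together summed to 247 ± 55.2 FPKM (SD, n = 6) in DRG and 277 ± 42.6 (n = 4) in TG. The DRG libraries gave 280, 275 and 138 in the males and 278, 270 and 243 in the females, and the TG libraries 266, 225, 293 and 325. Male DRG 3 was thus far below all the other libraries, while the remaining DRG sums lay inside the TG range. Over all genes, the FPKM of male DRG 3 summed to 870872, against 543862 to 646684 in the other libraries. It also had the fewest genes at an FPKM of 1 or more (10820). Its marker sums were the highest for neuronal (9021), peptidergic (17473) and A-fibre (1888) lists and the lowest for the nonpeptidergic list (375). Its Kv values are read with that limit.

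**Figure D2:**
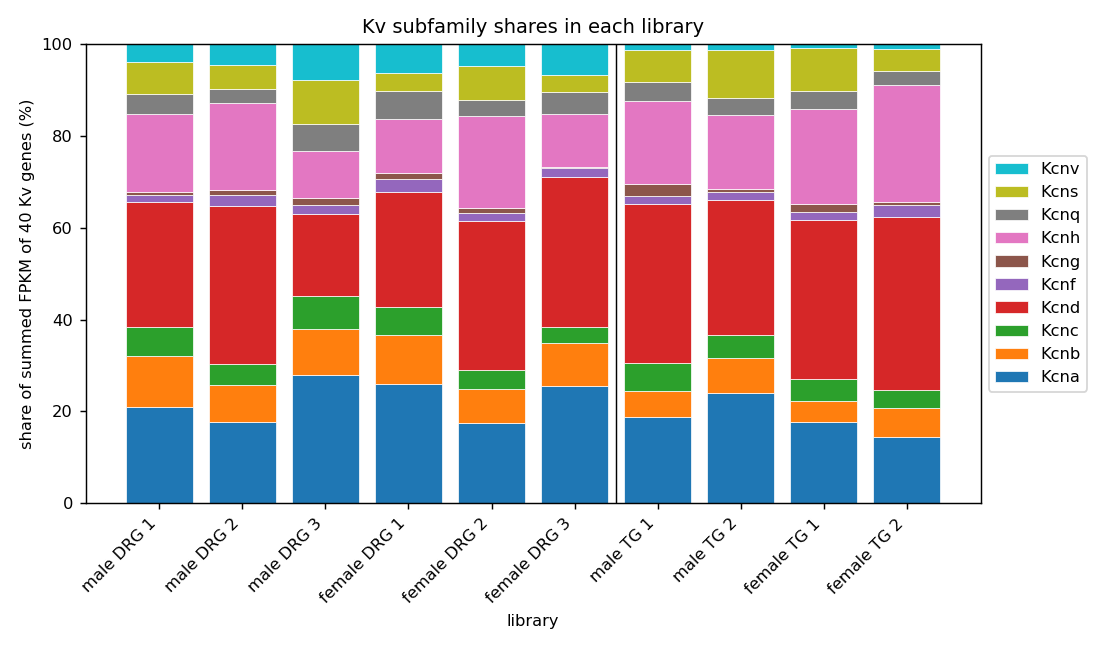
Share of the summed FPKM of the 40 Kv genes held by each subfamily (percent, stacked to 100) in the 6 DRG and 4 TG libraries. Kcnd genes hold the largest mean share in both ganglia, and the Kcnv share is 3.84% to 7.79% in DRG and 0.79% to 1.35% in TG.

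By subfamily, Kcnd genes held 28.3% ± 6.25 of the sum in DRG and 34.1% ± 3.39 in TG, Kcna genes 22.6% ± 4.50 and 18.7% ± 3.99, and Kcnh genes 14.9% ± 4.32 and 20.1% ± 4.003. Kcns genes held 6.18% ± 2.28 and 7.93% ± 2.59, Kcnc genes 5.28% ± 1.44 and 4.97% ± 0.92, and Kcnq genes 4.63% ± 1.30 and 3.71% ± 0.52. Kcnf held 2.04% ± 0.45 and 1.97% ± 0.34, and Kcng genes 0.99% ± 0.45 and 1.38% ± 0.89. The Kcnv share, which was that of Kcnv1 alone, was 5.66% ± 1.49 in DRG and 1.10% ± 0.24 in TG. The Kcnh share was 10.1%, 11.8% and 11.4% in the 3 DRG libraries that stood apart. It was 16.8% to 20.1% in the other DRG libraries and 16.2% to 25.4% in TG. Male DRG 3 had the lowest Kcnd share, at 17.9%. Kcnd1 and Kcnh6 together held 35.1% of the sum in DRG and 47.6% in TG, so the other shares move with them. These shares are descriptions and were not tested.

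For DRG against TG, a linear model of log2(FPKM + 1) with terms for sex and ganglion was fitted to all 12637 detected genes in limma, with Benjamini-Hochberg adjustment. Kcnv1 was the one member that passed an adjusted p of 0.05, and it was higher in DRG. Over all genes the same call was made for 0.0791% in the direction of DRG. No member passed in the direction of TG, where 0.0317% of all genes did. At an unadjusted p under 0.05, 3 members were higher in DRG (Kcnv1, Kcnq5 and Kcnh7) against 2.29% of all genes, and 1 was higher in TG (Kcns3) against 4.06%. Those 3 were also the members whose DRG libraries all lay above all TG libraries, which held for 0.681% of all genes, and the reverse held for 0 members and 1.27% of all genes. Kcnq5 was among them but had been detected through DRG alone. Of the 25 members detected through both ganglia, 2 had an unadjusted p under 0.05 in the direction of DRG and 2 had no overlap in that direction, against 1.72% and 0.503% of the 11329 genes detected through both. The fit placed 12 of the 27 detected members higher in DRG and 15 higher in TG, where 44.3% of all genes were placed higher in DRG. The median difference was -0.09 on the log2 scale over the members and -0.05 over all genes tested, and the median over the members turned to 0.03 without male DRG 3 and to 0.09 with a filter at 5 FPKM. For 16 of the 27 the 95% interval of the difference lay within 1 unit of 0 on that scale.

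**Figure D3:**
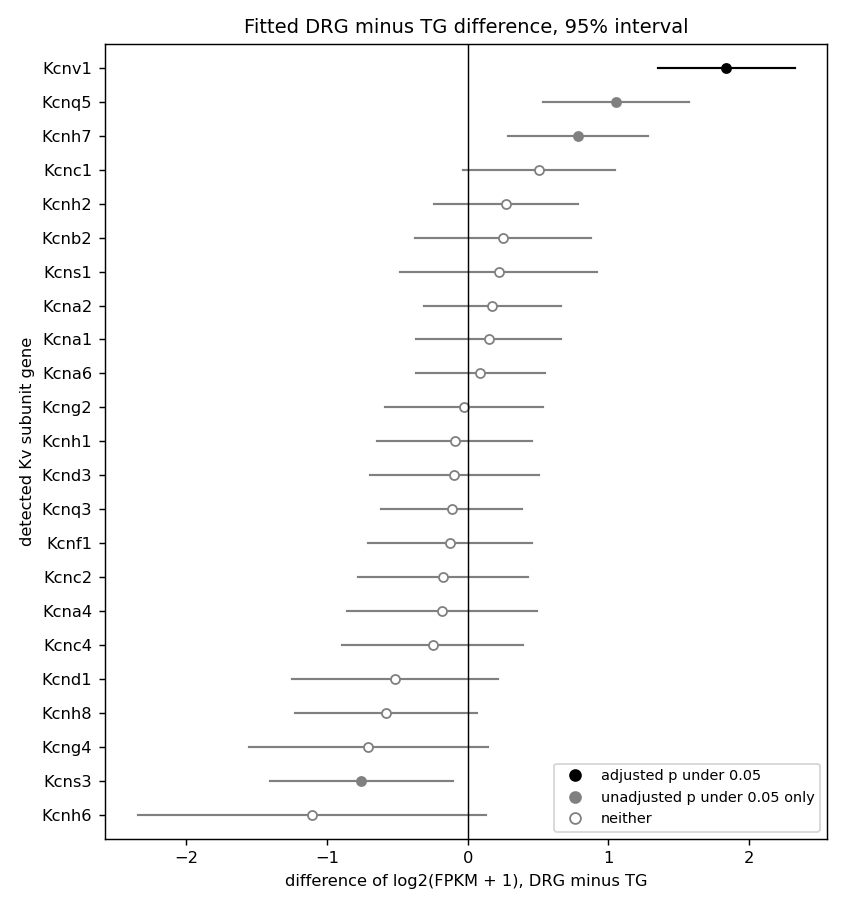
Difference of log2(FPKM + 1) between DRG (n = 6) and TG (n = 4) for 23 detected Kv genes, with 95% intervals, positive where DRG was higher. The interval of Kcnv1 runs from 1.35 to 2.32, and those of 19 of the 23 reach across 0.

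Kcnv1, a modifying subunit that joins Kcnb subunits and shifts their voltage dependence, lies on chromosome 15 (45106284 to 45114920, minus strand, GRCm38). It was read at 10.7, 12.7 and 10.8 FPKM in the male DRG libraries and at 17.5, 13.0 and 16.2 in the female ones. The TG libraries gave 3.58 and 2.77 in males and 2.31 and 3.40 in females. Every DRG library lay above every TG library, and the gap was the same way in both sexes. The mean was 13.5 ± 2.80 FPKM (SD, n = 6) in DRG and 3.02 ± 0.585 (n = 4) in TG, a ratio of 4.46, which placed it 6th of the 40 genes by mean level in DRG and 16th in TG. The fitted difference was 1.84 on the log2 scale (SE 0.22, limma adjusted p = 0.00339), and an exact permutation test of the library labels (two-sided, 210 arrangements) gave p = 0.00476, the smallest it can give. Without the 3 DRG libraries that stood apart it was 1.71 (adjusted p = 0.0124), and with a replicate block by description numbers it was 1.81 (adjusted p = 0.0350). With a block by sex and title numbers it did not pass (limma adjusted p = 0.0849).

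**Figure D4:**
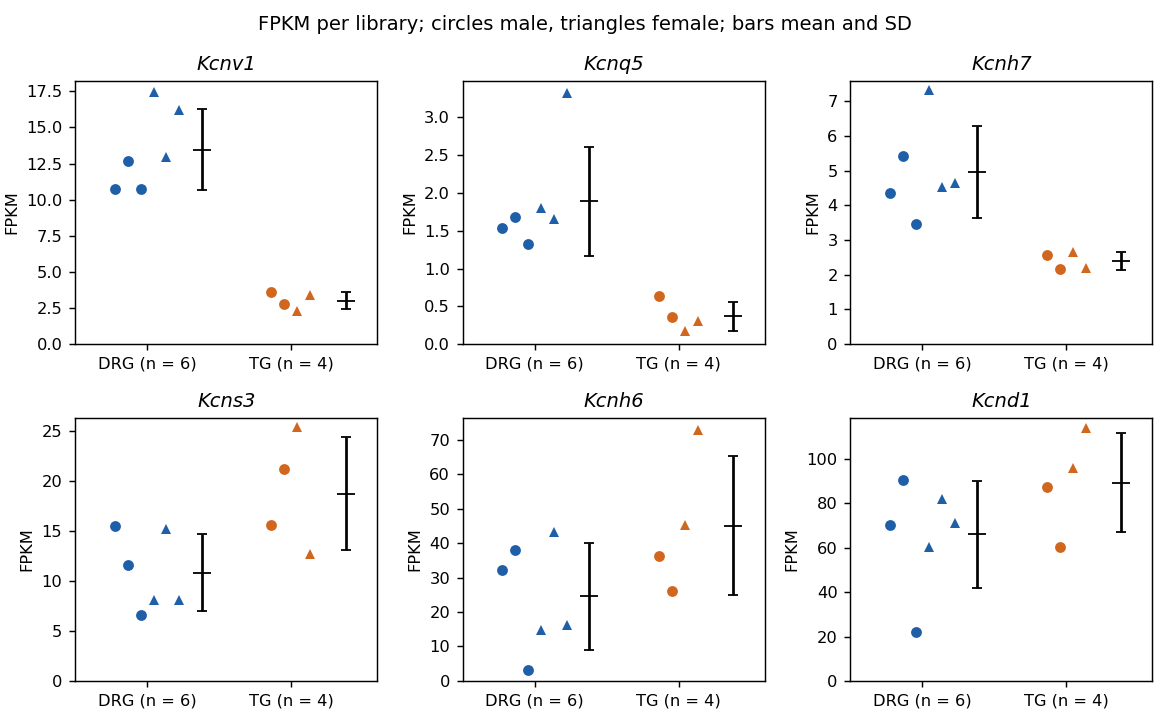
FPKM per library in DRG (n = 6) and TG (n = 4) for 6 Kv genes, with circles for males, triangles for females and bars for the mean and SD. The ganglia do not overlap for Kcnv1, Kcnq5 and Kcnh7, and they overlap for Kcns3, Kcnh6 and Kcnd1.

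Of the subunits that Kcnv1 can join, Kcnb2, which forms delayed rectifier channels, averaged 7.71 ± 2.52 FPKM in DRG and 6.09 ± 1.36 in TG. Its libraries overlapped between the ganglia, with a fitted difference of 0.25 (SE 0.29, limma adjusted p = 0.876).

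Kcns3, another modifying subunit of Kcnb channels, went the other way at an unadjusted p only. It was read at 15.5, 11.6 and 6.56 FPKM in male DRG and 8.09, 15.2 and 8.05 in female DRG, and at 15.6 and 21.2 in male TG and 25.4 and 12.7 in female TG. The 3 DRG libraries that stood apart were its 3 lowest, and the other DRG libraries overlapped with TG. The mean was 10.8 ± 3.88 in DRG and 18.7 ± 5.68 in TG, and the difference of -0.76 (SE 0.30) had an unadjusted p of 0.0267 and an adjusted p of 0.753 in limma. Without those libraries it was -0.34 (adjusted p = 0.854).

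The remaining modifying subunits were at low to moderate levels. Kcnf1, which is silent alone, averaged 5.10 ± 1.82 FPKM in DRG and 5.56 ± 1.78 in TG, with a difference of -0.12 (SE 0.27, limma adjusted p = 0.927). Kcns1, whose variants have been linked to pain in humans, averaged 3.26 ± 2.02 and 2.37 ± 0.403. Kcng4 averaged 0.830 ± 0.567 and 2.35 ± 1.96, and its 4 TG libraries ranged from 0.234 to 4.81, with a difference of -0.71 (SE 0.39, limma adjusted p = 0.792) that was -0.25 without male TG 1 and -1.11 without male TG 2. Kcng2 averaged 1.09 ± 0.581 and 1.07 ± 0.280. Kcng1, Kcng3 and Kcns2 were below the detection rule, with means of 0.185, 0.244 and 0.516 in DRG and 0.390, 0.0671 and 0.264 in TG. All modifying subunits together held 14.9% ± 3.03 of the Kv sum in DRG and 12.4% ± 2.26 in TG, with overlapping ranges.

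Among the Kcnq genes, which encode the subunits of the M-current, Kcnq5 was the one whose libraries did not overlap between the ganglia. It was read at 1.54, 1.69 and 1.33 FPKM in male DRG and 1.79, 1.66 and 3.32 in female DRG, and at 0.637, 0.364, 0.180 and 0.308 in TG. Every DRG library was above every TG library, and none of the TG libraries reached an FPKM of 1, so that Kcnq5 entered the test through DRG alone, the ganglion where it was higher, and its separation is given as a description. The mean was 1.89 ± 0.721 in DRG and 0.372 ± 0.193 in TG, a ratio of 5.07. The fitted difference was 1.05 (SE 0.24) and did not pass the adjusted threshold (limma adjusted p = 0.209). The paper, which tested with DESeq2, lists Kcnq5 as differentially expressed and as present in DRG only. That call rests on another test than the limma fit of FPKM given here. The pseudocount holds down the difference of a gene this low, and with a pseudocount of 0.1 it was 2.10.

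Kcnq3, another M-current subunit, averaged 0.822 ± 0.334 FPKM in DRG and 0.962 ± 0.307 in TG. Kcnq1, the cardiac and epithelial member, was above 0 in 1 DRG and 1 TG library and reached 0.760 at most.

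In the Kcnh subfamily the 3 Erg genes leaned in both directions. Kcnh7 was read at 4.35, 5.42 and 3.47 FPKM in male DRG and 7.32, 4.52 and 4.65 in female DRG, and at 2.56 and 2.16 in male TG and 2.67 and 2.21 in female TG. All DRG libraries lay above all TG libraries. The mean was 4.95 ± 1.32 in DRG and 2.40 ± 0.253 in TG, a ratio of 2.07, with a difference of 0.79 (SE 0.23, unadjusted p = 0.00502, adjusted p = 0.480 in limma). The two-sided exact permutation p of 0.00476 is unadjusted and the smallest that test can give. It largely restates the lack of overlap and is no further support.

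Kcnh6, the Erg gene at the highest level, was read at 32.2, 38.1 and 3.08 FPKM in male DRG and 14.8, 43.2 and 16.1 in female DRG, and at 36.2, 26.1, 45.2 and 72.9 in TG. The 3 DRG libraries that stood apart were again its 3 lowest, and this order was seen in 2 of the 27 detected members, Kcnh6 and Kcns3. The share of all genes with this order was not computed, and the 3 libraries were singled out in these same data. The count is therefore a description and not a trait of the members. Its mean was 24.6 ± 15.6 in DRG and 45.1 ± 20.1 in TG, with a difference of -1.11 (SE 0.57, limma adjusted p = 0.785). Without those libraries the difference was -0.05 (adjusted p = 0.989). Kcnh2, the Erg gene of the heart, averaged 3.10 ± 1.06 and 2.33 ± 0.378. Of the 3 Erg genes' summed FPKM, Kcnh7 made up 9.10% to 30.7% in DRG and 2.87% to 7.06% in TG, a share that moves with Kcnh6 as well.

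Kcnh1, of the Eag type, averaged 3.90 ± 1.16 FPKM in DRG and 4.12 ± 0.499 in TG, and Kcnh8, of the Elk type, 0.969 ± 0.581 and 1.92 ± 0.788. Kcnh5 and Kcnh3 were below the detection rule, at 0.454 and 0.0299 in DRG and 0.939 and 0.134 in TG.

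Kcnd1, an A-type subunit, was the highest Kv gene in both ganglia. It was read at 70.1, 90.6 and 22.0 FPKM in male DRG and 60.4, 82.1 and 70.9 in female DRG, and at 87.2, 60.4, 95.9 and 114 in TG. Male DRG 3 was far below the other libraries, which overlapped between the ganglia. The mean was 66.0 ± 24.0 in DRG and 89.4 ± 22.3 in TG, with a difference of -0.52 (SE 0.34, limma adjusted p = 0.807). Without male DRG 3 it was -0.25, and without the 3 DRG libraries that stood apart -0.06. Kcnd3 averaged 5.87 ± 2.30 and 6.10 ± 1.70, so that Kcnd1 was 7.56 to 20.4 times Kcnd3 in DRG and 10.2 to 18.6 times in TG. Kcnd2, the A-type subunit of much of the brain, was below the detection rule, at 0.297 in DRG and 0.146 in TG.

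No Kcna gene passed the test at either threshold. Kcna6, the highest of them and a delayed rectifier subunit, was read at 25.3, 21.5 and 17.5 FPKM in male and 30.7, 22.0 and 27.8 in female DRG, and at 24.0, 24.3, 19.1 and 22.1 in TG. The ganglia overlapped, with means of 24.1 ± 4.77 and 22.4 ± 2.40 and a difference of 0.09 (SE 0.21, 95% interval -0.37 to 0.55, limma adjusted p = 0.932). Kcna1 and Kcna2, which pair at the juxtaparanodes of myelinated axons, averaged 17.5 ± 4.95 and 8.57 ± 1.86 in DRG and 15.5 ± 3.32 and 7.36 ± 0.610 in TG. Kcna4, the inactivating member, averaged 4.03 ± 1.70 and 4.41 ± 0.674. Kcna3, Kcna5 and Kcna10 were below the detection rule, with means of at most 0.690.

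The Kcnc genes, whose channels repolarize fast-firing neurons, were lower. Kcnc4, the highest, was read at 10.6, 7.12 and 4.05 FPKM in male and 11.2, 5.50 and 4.98 in female DRG and at 7.03 to 10.7 in TG. Its means of 7.23 ± 2.99 and 8.35 ± 1.58 gave a difference of -0.25 (SE 0.30, limma adjusted p = 0.883). Kcnc1 averaged 2.19 ± 0.902 in DRG and 1.19 ± 0.308 in TG, and Kcnc2 2.25 ± 0.893 and 2.55 ± 0.432.

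Spread was wider in DRG over all genes, and the Kv genes followed it. The coefficient of variation was larger in DRG than in TG for 24 of the 27 detected members and for 85.3% of all genes tested, with medians of 0.382 and 0.223 over the members and 0.426 and 0.220 over all genes. The libraries that stood apart are all from DRG. Between males and females no member passed, at a limma adjusted p of 0.05 (0.0237% of all genes) or at an unadjusted one (0 members, 4.10% of all genes). For the interaction of ganglion and sex, 0 members and 0 genes passed the adjusted threshold in limma, and at an unadjusted p under 0.05 there were 0 members against 1.17% of all genes. The Kcnv1 difference was 1.57 (SE 0.32) in males and 2.11 (SE 0.32) in females.

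Auxiliary subunits, which bind Kv channels in the cytoplasm or membrane and set their trafficking and inactivation, were also compared. Of 16 genes found, 13 were detected and 0 passed the adjusted threshold, with 7 fitted higher in DRG and 6 in TG and a median difference of 0.22. That median depended on the processing, at 0.08 without female DRG 1, 0.02 over the 8 libraries with a description number, -0.02 with no filter and -0.21 with a filter at 5 FPKM. The highest were Kcnip2, a calcium-binding partner of Kcnd channels, at 383 ± 98.4 FPKM in DRG and 458 ± 34.3 in TG, Kcnab2, a cytoplasmic beta subunit of Kcna channels, at 138 ± 52.0 and 183 ± 24.3, Kcnip4 at 134 ± 43.9 and 157 ± 18.0, and Dpp6, a membrane partner of Kcnd channels, at 105 ± 36.7 and 108 ± 14.0. The 13 detected genes summed to 507 FPKM in male DRG 3, against 991 to 1201 in the other DRG libraries and 1012 to 1171 in TG. At an unadjusted p under 0.05, 2 of the 13 were higher in DRG, against 2.29% of all genes. Kcnip1 averaged 68.3 ± 13.0 and 46.8 ± 4.50 (difference 0.52, SE 0.19, limma adjusted p = 0.702), with 1 DRG library inside the TG range. Kcne3, a small membrane subunit, averaged 1.19 ± 0.813 and 0.0986 ± 0.1002 (0.90, SE 0.32, limma adjusted p = 0.661), was detected through DRG alone, and was listed at 0 in 1 library of each ganglion.

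Genes whose products cluster or bind Kv channels gave a similar count. Of 15 found, 13 were detected, 0 passed the adjusted threshold in limma and 1 had an unadjusted p under 0.05 (higher in DRG, as were 2.29% of all genes), with 6 fitted higher in DRG and 7 in TG and a median difference of -0.01. Among the highest were calmodulin genes, whose product binds Kcnq and Kcnh channels, with Calm2 at 2865 ± 768 FPKM in DRG and 2394 ± 324 in TG and Calm3 at 96.7 ± 31.7 and 77.1 ± 9.41. Vapa, whose product anchors Kcnb clusters, was at 52.0 ± 13.4 and 40.8 ± 8.75. The 13 detected genes summed to 13566 FPKM in male DRG 3, against 6533 to 7275 in the other DRG libraries and 6170 to 7616 in TG. Cntnap2, which holds Kcna channels at the juxtaparanode, was read at 22.5, 18.8 and 37.3 FPKM in male and 33.6, 22.5 and 18.1 in female DRG and at 10.2, 14.4, 12.3 and 11.0 in TG. Its libraries did not overlap, but its difference of 0.99 (SE 0.25, unadjusted p = 0.00211) had an adjusted p of 0.329 in limma.

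Another data set in the deposited tables, of DRG cells prepared by dissociation alone or sorted magnetically to remove non-neuronal cells, holds the authors' mean FPKM for all 40 members. Genes were matched to it by Ensembl identifier. The genomic positions listed with it do not match its gene names in every row and were not used. The paper describes the magnetically sorted cells as pure DRG nociceptors. A low ratio therefore does not by itself place a gene outside neurons. No replicate values were used from it, so the ratios carry no error and no test. Of the 27 members detected in the FACS-sorted neurons, 6 had a ratio of magnetically sorted to dissociated cells of 0.25 or less, 7 had a ratio above 1 and 14 lay between. The shares of all genes at these limits were not computed, so the counts describe the members only.

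**Figure D5:**
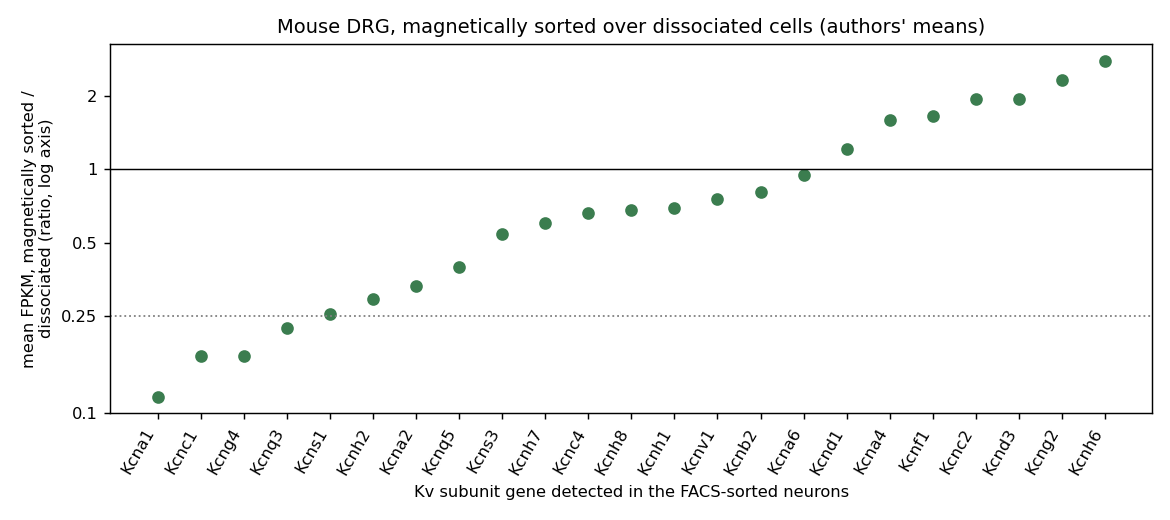
Ratio of the authors' mean FPKM in magnetically sorted to that in dissociated DRG cells (log axis) for 23 Kv genes detected in the FACS-sorted neurons, with lines at 1 and 0.25. Of those shown, Kcna1 is lowest at 0.117 and Kcnh6 highest at 2.78.

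Among the members with low ratios were Kcna1 (0.117), Kcnc1 (0.171), Kcng4 (0.172) and Kcnq3 (0.222). Kcna1 stood at 80.5 FPKM in dissociated and 9.41 in magnetically sorted cells. Just above the limit lay Kcns1, at 0.254, and Kcnh2, at 0.294. The members with ratios above 1 were Kcnh6 (2.78), Kcng2 (2.31), Kcnd3 (1.93), Kcnc2 (1.93), Kcnf1 (1.65), Kcna4 (1.59) and Kcnd1 (1.21). Kcnv1 (0.758), Kcnh7 (0.603), Kcns3 (0.543) and Kcnq5 (0.398) lay between. Kcnd1 was the highest member in magnetically sorted cells too, at 66.7 FPKM, and stood behind Kcna1 in dissociated cells, at 55.2, while Kcnv1 was at 7.59 and 10.02. Which cells lost in the magnetic sort carried the low-ratio genes was not tested.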

How the data were processed

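RNA of FACS-sorted Avil-GFP neurons was sequenced from DRG (6 libraries) and TG (4 libraries), after extraction in a single batch and low-input amplification. Reads had been aligned to mm10 by STAR, and the authors deposited the FPKM that Cufflinks gave for each library. The authors' deposited signal of mean counts divided by DESeq2 size factors served only to give the depth behind a gene, and their mean FPKM of magnetically sorted and dissociated DRG cells of another study was read as it stands. Columns of the authors' own comparisons were not used, nor were 22 further columns of per-library values (12 of another study and 10 that repeat the FPKM).

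A gene was kept where 2 or more libraries of a ganglion reached an FPKM of 1, and log2(FPKM + 1) was fitted with limma 3.58.1 in R 4.3.3 (eBayes with a trend, terms for ganglion and sex). Fold changes are differences on that scale, DRG minus TG, and understate the change of low genes. Benjamini-Hochberg adjustment ran over the kept genes, with a threshold of 0.05. The fit was tested on simulated data with independent noise and known changes in genes above the median level. The simulation held no libraries that stand apart and no changed low genes, so it says nothing of those. Each library is of 1 mouse per the study's methods. The members and the lists were chosen with earlier results of these data known, Kcnv1 and Kcnq5 among them, so no count over them is independent support. Each member is given with its mean, and full statistics are given for members with p under 0.05, for members whose libraries do not overlap, for the highest member of each subfamily and for Kcnv1 and Kcnq5. Of the auxiliary and partner lists, genes with an unadjusted p under 0.05 and the 4 highest are named. Some members and genes that these rules name are not reported here.

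The description numbers shared by 4 DRG libraries and 4 TG libraries served as pairs, since deviations from the group means correlated in 4 of 4 pairs (0.148 to 0.383, each over the limit of 0.1) and each DRG library correlated best with its own number, by a narrow margin for male DRG 2 (0.148 against 0.146). No label says that a pair came from 1 mouse. Alternatives were pseudocounts of 0.1 and 0.5, quantile or median-ratio rescaling, a filter at 5 FPKM or none, array weights, a fit with no trend or no sex term, replicate blocks and each library left out. Fits leaving out the 3 DRG libraries that stood apart, and unblocked fits of the paired libraries, were chosen once the data had been seen. Coding sequences are of the principal GENCODE M21 transcript.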

Additional observations from a re-analysis of the deposited data

Results flagged for a closer look

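In 1 of the 46 groups of reported detected members and ganglia, 1 library lay far from the others by the gap to its nearest neighbour as a share of the range, where chance gives about 1 of 20 groups. Kcnq5 was read at 3.32 FPKM in female DRG 3, with the other DRG libraries at 1.33 to 1.79, and its DRG minus TG difference without that library was 0.92 on the log2 scale (limma adjusted p = 0.229). No reported member differed between the sexes in its DRG and TG contrast by the interaction term at an adjusted p of 0.05, or by libraries that all moved in opposite directions.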

How the results depend on the processing

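Kcnv1 was higher in DRG under every alternative run, with differences of 1.70 to 2.12 on the log2 scale. It passed the adjusted threshold in limma in all of them except the replicate block by sex and title numbers over 8 libraries (1.84, adjusted p = 0.0849), where 0 members passed. With those title numbers the correlations were -0.357 to 0.0972 and no DRG library correlated best with its own number. No label states a pairing under either numbering, so the correlations cannot settle which block is right. With each library left out the difference of Kcnv1 was 1.70 to 1.95 (adjusted p 0.00388 to 0.0344), that of Kcnq5 0.92 to 1.17, and the count of members called in the direction of DRG stayed at 1 and of TG at 0. Array weights, which give each library its own weight, called 2 members in DRG, adding Kcnq5 (0.94, adjusted p = 0.0361), and 1 binding partner, Cntnap2 (0.92, adjusted p = 0.0190). The cause was not tested.

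Over all genes 14 passed (10 higher in DRG and 4 in TG), against 118 with array weights, 31 without the 3 DRG libraries that stood apart, 22 over the 8 libraries with a title partner not paired, and 11 to 25 with 1 library left out, 25 being without male DRG 3. Members with an unadjusted p under 0.05 numbered 4, 3 to 6 with 1 library left out and 9 with the replicate block by description numbers, which moved no member over the adjusted threshold in either direction. The direction turned in members with small differences. Kcna6 was -0.023 with the description block and in the same 8 libraries not paired, and -0.012 to 0.17 with 1 library left out, the lowest without female TG 1. Kcnc4 was 0.00337 and Kcnf1 0.088 with the title block and in its 8 libraries not paired, and Kcnf1 was 0.00953 without the 3 libraries. Rescaling turned Kcng2 alone of the 27, whose difference was -0.03. The sex comparison could not be fitted with either block, since the pairs lie within a sex. Of 626 comparisons with an alternative, 607 kept their direction and their side of the threshold or stayed within the spread. That tally does not measure robustness. For the sums and shares, a mean with 1 library left out cannot move by more than the SD, whatever the data. Many other comparisons are counts of 0 that stayed at 0, or genes that passed the threshold in no setting. The mean counts, 25.4 for Kcng2 and up to 28.2 among undetected members, limit what can be said of low genes.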
